A study of Homo sapiens with 6 samples.

Results

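Aminoacyl-tRNA synthetases were examined in MCF10A cells, a non-tumorigenic human mammary epithelial line, with and without an shRNA against FRY. The genes are 19 cytoplasmic synthetases, 16 mitochondrial synthetases and 2 scaffold proteins, AIMP1 and AIMP2, chosen by symbol from their known function. Of these 37 genes, 33 were measured among the 19775 genes of the array: 17 cytoplasmic enzymes, 15 mitochondrial enzymes and AIMP1. MARS1, QARS1 and TARS2 were named only by probe sets that list several symbols, and no probe set was named for AIMP2, so these 4 genes are not analysed here. The 3 control samples came from MCF10A-CV cells, stably transfected with a non-targeting shRNA, and the 3 shFRY samples from MCF10A-shFRY cells, stably transfected with an shRNA against FRY. Both had been selected with puromycin and were grown in monolayer in mammary epithelial medium with epidermal growth factor, insulin, hydrocortisone and bovine pituitary extract. For each construct 1 stable clone had been picked, and its 3 RNA samples were taken at different passages. The p-values therefore measure only the spread between these samples, and an effect of the shRNA cannot be told apart from a difference between clones.

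A synthetase joins an amino acid to its tRNA, the step that fixes the genetic code before the ribosome is reached. The cytoplasm and the mitochondrion each need such a set, and both sets are encoded in the nucleus by mostly separate genes, with GARS1 and KARS1 serving both compartments and EPRS1 charging both glutamate and proline tRNAs in the cytoplasm. Enzymes fall into classes I and II by the fold of the catalytic domain, and some cytoplasmic enzymes sit in a multi-synthetase complex held together by the AIMP proteins. Uncharged tRNA is sensed by the kinase GCN2, which phosphorylates eIF2, and translation of the transcription factor ATF4 then increases. Many cytoplasmic synthetase genes are known targets of ATF4. ATF4 and its partner C/EBP proteins bind a composite element, of which TGATGCAA is a common form.

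Each array held 54675 probe sets, and the sample medians of the deposited log2 values were 3.02 to 3.06. Across probe sets, r was 0.992 to 0.995 within a group and 0.972 to 0.978 between groups. FRY itself was lower in the shFRY samples at each of its 4 probe sets, by log2 differences of -0.75 to -0.32, and 1 probe set passed the threshold. Of 10 mammary epithelial markers, 6 were measured (KRT5, KRT14, KRT18, EPCAM, CDH1 and ITGB4), with mean log2 signals of 7.86 to 11.52. Of these 6, 3 were higher and 1 lower in the shFRY samples, with log2 fold changes of -0.37 to 2.92. These are 50% and 16.7%, where 13.7% of all genes were called higher and 16% lower. The summed linear signal of the 6 epithelial markers was 7614 to 8140 among control and 9852 to 10320 among shFRY samples. Of the 6 fibroblast markers, LUM and DCN passed as lower (33.3%) and the other 4 did not pass, with log2 fold changes of -3.94 to 0.17. The sum was 200 to 228.5 among control and 55.64 to 61.85 among shFRY samples. The 4 immune markers measured of 6 (1 lower) had mean log2 signals of 1.37 to 2.66, below the median of all probe sets (3.04), and sums of 21.3 to 27.06 against 16.9 to 20.84. The 5 adipocyte markers (1 higher, 20%) were as dim, with sums of 21.46 to 24.26 against 21.8 to 25.15. The 6 endothelial markers (1 higher and 1 lower, 16.7% each) had log2 fold changes of -2.45 to 1.85. They summed to 259.3 to 269.4 in control and 189 to 230 in shFRY samples. In bulk RNA, fewer cells of a type and less RNA per cell cannot be told apart, and the part of these markers in the results below was not tested. The signal difference between the 3' and 5' control probe sets of beta-actin, a measure of RNA length, averaged 2.52 ± 0.19 (log2, SD) over the 3 control samples against 2.87 ± 0.03 over the 3 shFRY samples. This is a difference of 0.35 (two-sided exact permutation p = 0.1, which 3 samples a group cannot go below). For GAPDH the same test gave an exact permutation p of 0.4.

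The cytoplasmic synthetases were mostly higher in shFRY cells. Of the 17 measured, 10 rose, 2 fell and 5 did not pass (limma, Benjamini-Hochberg adjusted p under 0.05 over all genes). Over all 19775 genes 13.7% were called higher, 16% lower and 29.8% in either direction, against 58.8% higher and 11.8% lower among the cytoplasmic enzymes. Their median log2 fold change was 0.58, where that of all genes was 0.03. The 3 shFRY samples lay wholly outside the range of the 3 control samples for 16 of the 17 enzymes, as they did for 44.2% of all genes. Of the 17, 3 were called with a change of at least 2-fold (WARS1, AARS1 and SARS1), and 7.50% of all genes were. The median change of the 17 enzymes against the control mean was 0.56, 0.58 and 0.55 in shFRY samples 1, 2 and 3. The shift thus had nearly the same size in each RNA sample of the 1 shFRY clone. With the beta-actin 3' to 5' difference as a covariate, 5 of the rises (AARS1, SARS1, CARS1, YARS1 and WARS1) and neither fall passed, while 1026 genes passed in all. Without probe sets ending in _x_at and _s_at, which can match more than 1 transcript, 12 of the enzymes were measured and 5 rose. The part of RNA length in the results was not tested.

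**Figure D1:**
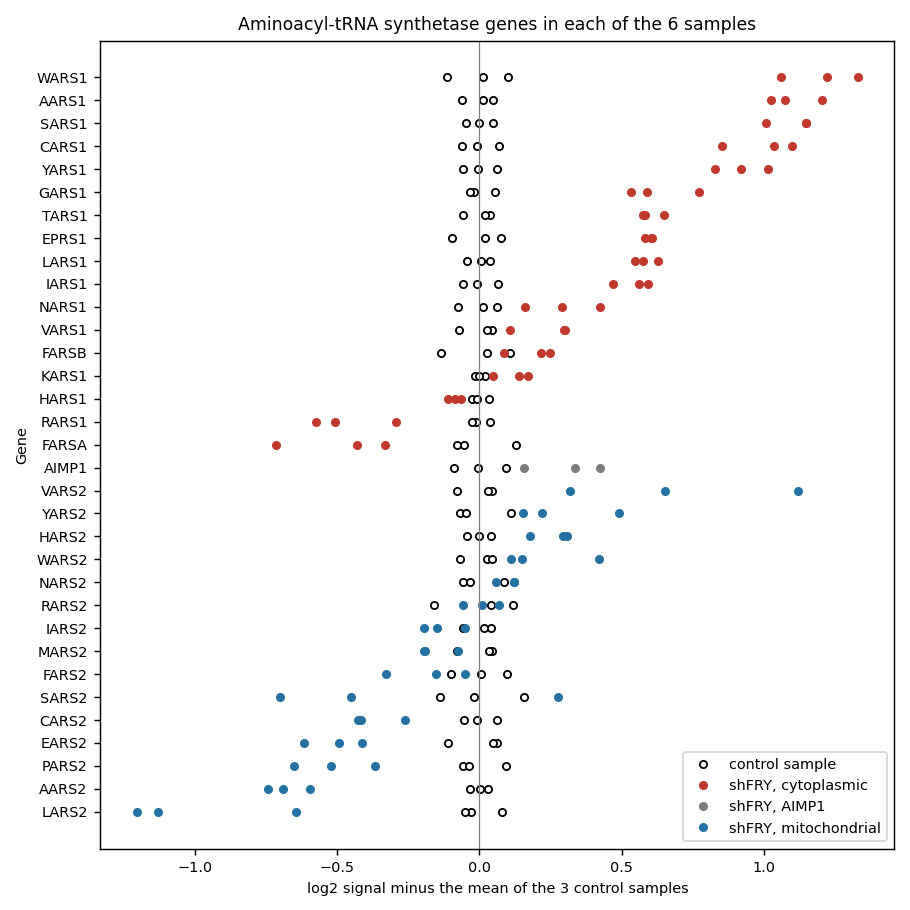
Log2 signal of each measured synthetase gene and AIMP1 in the 6 samples, as the difference from the mean of the 3 control samples of that gene (open circles, control; filled circles, shFRY, red for cytoplasmic, blue for mitochondrial and grey for AIMP1). Genes are ordered by change within each compartment: WARS1, AARS1 and SARS1 are at the top of the cytoplasmic set, and the shFRY samples of LARS2 lie lowest.

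The tryptophan enzyme WARS1 had the largest rise at the probe sets that represent the genes, though a second SARS1 probe set rose more (1.82). Its log2 signal was 7.65, 7.77 and 7.86 in the control samples against 9.09, 8.98 and 8.82 in the shFRY samples. The lowest shFRY sample stood almost 1 log2 unit above the highest control sample, and the log2 fold change was 1.20 (SE 0.11, limma adjusted p = 0.000155), or 2.30-fold. AARS1, which charges alanine tRNA, read 8.88, 8.85 and 8.77 in the control samples against 10.04, 9.91 and 9.86 in the shFRY samples. The groups were far apart, with a log2 change of 1.10 (SE 0.10, limma adjusted p = 0.000126). SARS1, the serine enzyme, which also charges the selenocysteine tRNA with serine, went from 9.46, 9.41 and 9.37 to 10.57, 10.42 and 10.56. All shFRY samples exceeded all controls by about the same margin, and the log2 fold change was again 1.10 (SE 0.10, limma adjusted p = 0.000111). The cysteine enzyme CARS1 was at 9.50, 9.58 and 9.45 in the control samples against 10.36, 10.61 and 10.54 in the shFRY samples. Its change of 0.995 (SE 0.11, limma adjusted p = 0.000279), or 1.99-fold, fell just short of 2-fold. YARS1, the tyrosine enzyme, read 8.15, 8.08 and 8.03 in the control samples against 9.01, 9.10 and 8.91 in the shFRY samples. The groups did not overlap, and the log2 fold change was 0.92 (SE 0.10, limma adjusted p = 0.000293).

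The other rises were smaller and close to each other in size. GARS1, the glycine enzyme of both compartments, had control signals of 10.84, 10.91 and 10.82 and shFRY signals of 11.39, 11.45 and 11.63. It was among the brightest of the synthetase probe sets, with groups that did not overlap and a log2 change of 0.63 (SE 0.10, limma adjusted p = 0.00242). TARS1, for threonine, stood at 9.86, 9.84 and 9.77 in the control samples against 10.40, 10.41 and 10.47 in the shFRY samples. Its shFRY samples were close to each other and lay above every control sample, with a log2 change of 0.60 (SE 0.09, limma adjusted p = 0.00174). EPRS1, the bifunctional enzyme of the complex, had signals of 10.49, 10.43 and 10.31 against 11.02, 10.99 and 11.01. The shFRY samples were almost identical (SD 0.01), and the log2 fold change was 0.60 (SE 0.09, limma adjusted p = 0.00213). LARS1 and IARS1, the leucine and isoleucine enzymes of the same complex, had log2 fold changes of 0.58 and 0.54 (limma adjusted p = 0.00191 and 0.00344). LARS1 went from 10.55, 10.63 and 10.60 to 11.22, 11.17 and 11.14 without overlap. Over the 10 enzymes the rises ran from 1.46-fold to 2.30-fold. Each of the 10 passed when any 1 sample was left out.

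Of the cytoplasmic enzymes, 2 fell. FARSA encodes the catalytic alpha subunit of the phenylalanine enzyme, the only cytoplasmic synthetase built from different subunits. Its signals were 6.81, 6.62 and 6.60 in the control samples against 5.96, 6.25 and 6.35 in the shFRY samples. All shFRY samples were lower, and the log2 fold change was -0.49 (SE 0.13, limma adjusted p = 0.0208), but the call was lost without control sample 1 or 2 or shFRY sample 1 (limma adjusted p = 0.0773, 0.0501 and 0.0524). RARS1, the arginine enzyme of the complex, went from 8.44, 8.43 and 8.49 to 7.88, 7.94 and 8.16. Its groups did not overlap either, with a log2 change of -0.46 (SE 0.11, limma adjusted p = 0.0130). The enzymes that did not pass were NARS1 (log2 fold change 0.29), VARS1 (0.24), FARSB (0.18), KARS1 (0.12) and HARS1 (-0.09), with limma adjusted p-values from 0.0747 to 0.518. FARSB, the beta subunit that pairs with FARSA, was the only cytoplasmic gene whose groups overlapped. The scaffold gene AIMP1 had signals of 9.30, 9.49 and 9.38 in the control samples against 9.81, 9.73 and 9.55 in the shFRY samples. The groups did not overlap, but the difference of 0.31 (SE 0.11) did not pass (limma adjusted p = 0.0720), and it passed only when shFRY sample 3 was left out (0.38, limma adjusted p = 0.0390) and in 2 of the alternatives, eBayes with trend and robust options and the brighter probe sets alone.

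**Figure D2:**
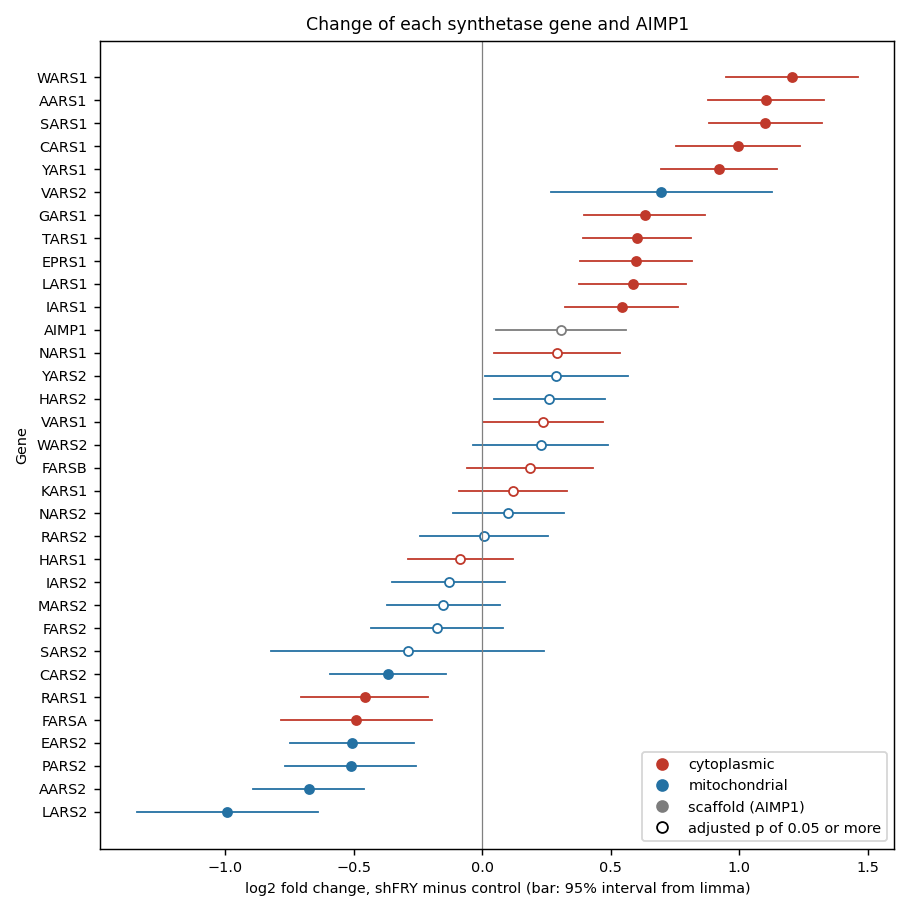
Log2 fold change (shFRY minus control, x axis) of each measured gene with its 95% confidence interval from limma, in order of change and coloured by compartment, with open circles for genes that did not pass. The upper end is held by cytoplasmic enzymes, up to 1.20 for WARS1, and the lower end by mitochondrial ones, down to -0.99 for LARS2.

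The rises were found in both structural classes and inside and outside the complex. For the counts below, 13.7% of all genes were called higher and 16% lower. Of 7 measured class I cytoplasmic enzymes 5 rose and 1 fell (median log2 fold change 0.58), and of 9 class II enzymes 4 rose and 1 fell (0.29), with EPRS1 holding a domain of each class. Within the multi-synthetase complex 3 of 5 measured enzymes rose and 1 fell (median 0.54), and outside it 7 of 12 rose and 1 fell (0.62). The split was wider by ATF4: of 12 cytoplasmic synthetases commonly listed as ATF4 targets 11 were measured, and 10 of them rose and none fell (median 0.63). The exception was NARS1, at 0.29 (limma adjusted p = 0.0747, or 0.0141 with trend and robust options). Of the 7 enzymes not on that list 6 were measured, of which 0 rose and 2 fell (limma; median 0.02), and VARS1, KARS1, HARS1 and FARSB did not pass. Of these 4 VARS1 had the smallest unadjusted limma p, 0.0486, as higher, and with its probe sets averaged it passed (0.32, limma adjusted p = 0.0359). The list was written with the rise of ATF4 genes in these samples known, so its count is a description only.

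Sequences upstream of these genes were read for the ATF4 composite element, because the enzymes that rose are on that list of ATF4 targets. As the list was written with the rise of ATF4 genes known, the search is a description only. A part of ATF4 in the rises was not tested. RefSeq promoter windows of GRCh38.p14, from 250 bases before to 50 bases after a gene's start, were found for 32 of the 37 genes and not for LARS1, VARS1, YARS1, AARS2 and VARS2. TGATGCAA was searched on both strands, and then the looser TGATGNAA, which contains it. TGATGCAA was in the window of 6 of 16 cytoplasmic synthetase genes (37.5%), in 0 of 14 mitochondrial ones and in 295 of 27305 genes with a window (1.08%). TGATGNAA was in 7 of 16 (43.8%), 1 of 14 (7.14%) and 4.46% of genes. The 8 matches are shown with neighbouring bases, 5′ to 3′ along the gene's own strand, with the match in capitals, so that a match on the opposite strand reads TTGCATCA or TTTCATCA.
AARS1 at chr16:70289675-70289704 (minus strand): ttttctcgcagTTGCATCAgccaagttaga
CARS1 at chr11:3057407-3057436 (minus strand): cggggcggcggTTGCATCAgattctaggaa
IARS1 at chr9:92293692-92293721 (minus strand): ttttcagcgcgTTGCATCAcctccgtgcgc
MARS1 at chr12:57488053-57488082 (plus strand): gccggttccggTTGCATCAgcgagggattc
NARS1 at chr18:57621804-57621833 (minus strand): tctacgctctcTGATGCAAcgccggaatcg
TARS1 at chr5:33440956-33440985 (plus strand): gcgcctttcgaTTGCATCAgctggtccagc
GARS1 at chr7:30594834-30594863 (plus strand): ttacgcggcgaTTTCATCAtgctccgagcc
YARS2 at chr12:32756076-32756105 (minus strand): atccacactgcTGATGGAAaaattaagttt
The matches of CARS1, IARS1, MARS1, NARS1 and TARS1 began within 15 bases of the annotated start, at positions -2, -13, -4, 15 and 3, and that of GARS1 at -33. Those of AARS1 and YARS2 began at -187 and -197. Of the 8 cytoplasmic genes that rose and had a window, 4 held TGATGCAA (AARS1, CARS1, IARS1 and TARS1) and 5 held TGATGNAA. Of the 6 measured cytoplasmic genes that had a window and did not rise, 1 (16.7%) held each motif. These few genes were not compared by a test. WARS1, SARS1 and EPRS1 rose and held neither in these windows, while NARS1 held TGATGCAA and did not pass. Among the 26 other genes of the ATF4 pathway described below, 21 had a window, of which 3 held TGATGCAA (14.3%) and 7 held TGATGNAA (33.3%). A match is a run of letters and not a measured binding site.

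The mitochondrial synthetases did not share the rise. Of 15 measured, 1 rose, 5 fell and 9 did not pass (limma), which is 6.67% higher and 33.3% lower against 13.7% and 16% of all genes. Their median log2 fold change was -0.15, none was called with a 2-fold change, and the groups did not overlap for 9 of 15, against 44.2% of all genes. LARS2, the leucine enzyme, had the largest fall, from 7.67, 7.64 and 7.77 in the control samples to 6.49, 6.57 and 7.05 in the shFRY samples. The shFRY samples spread more than the control samples but all lay below them, and the log2 fold change was -0.99 (SE 0.15, limma adjusted p = 0.00187). AARS2, the alanine enzyme, had signals of 8.01, 8.08 and 8.05 against 7.45, 7.36 and 7.31. Both groups were tight and apart, with a log2 change of -0.68 (SE 0.09, limma adjusted p = 0.00108). A dimmer AARS2 probe set, 231845_at, did not pass (-0.23, limma adjusted p = 0.382). PARS2, the proline enzyme, went from 7.03, 6.87 and 6.89 to 6.57, 6.41 and 6.28, a log2 change of -0.51 (SE 0.11, limma adjusted p = 0.00922). EARS2, the glutamate enzyme, went from 7.43, 7.60 and 7.59 to 6.93, 7.05 and 7.13, also -0.51 (SE 0.10, limma adjusted p = 0.00751). In both genes the groups did not overlap. CARS2, the cysteine enzyme, had signals of 8.02, 7.97 and 8.09 in the control samples against 7.76, 7.60 and 7.61 in the shFRY samples. Its groups were apart, but the change was small, at -0.37 log2 units with an SE of 0.10 (limma adjusted p = 0.0235). The CARS2 call was lost without any 1 sample other than shFRY sample 1, with limma adjusted p-values of 0.0517 to 0.0851. None of the 5 falls passed with the beta-actin covariate, where their log2 fold changes were -1.01 (LARS2), -0.72 (AARS2), -0.42 (PARS2), -0.64 (EARS2) and -0.44 (CARS2).

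VARS2, the valine enzyme, was the only mitochondrial synthetase called higher. Its log2 signal was 7.99, 7.86 and 7.97 in the control samples against 9.06, 8.59 and 8.26 in the shFRY samples. The shFRY cultures were uneven, sample 1 far above sample 3, yet all lay above the controls, with a log2 change of 0.70 (SE 0.19, limma adjusted p = 0.0242). Leaving out any control sample, or shFRY sample 2, ended the call, with limma adjusted p-values of 0.0663, 0.0787, 0.0619 and 0.0515. The enzymes that did not pass were YARS2 (0.29), HARS2 (0.26), WARS2 (0.23), NARS2 (0.10), RARS2 (0.01), IARS2 (-0.13), MARS2 (-0.15), FARS2 (-0.18) and SARS2 (-0.29). SARS2 read 3.20, 2.91 and 3.03 in the control samples against 2.35, 2.60 and 3.32 in the shFRY samples. It lay near the median of all probe sets (3.04), with overlapping groups, and without shFRY sample 3 it passed as lower (-0.58, limma adjusted p = 0.0190). By class, 1 of 9 class I mitochondrial enzymes rose and 3 fell, and of 6 class II enzymes 0 rose and 2 fell (limma), with HARS2 higher at an unadjusted p of 0.0239 in that fit. Among all genes 13.7% rose and 16% fell.

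To compare the compartments within the same cultures, the mitochondrial log2 signal was subtracted from the cytoplasmic one in each sample for every amino acid. The shFRY minus control change of that difference was then tested with all genes' values in 1 limma fit of 19789 genes and pairs. Of 16 listed pairs, with EPRS1 set against both PARS2 and EARS2, 14 were measured. In 9 of them the cytoplasmic enzyme rose relative to its mitochondrial counterpart, in 3 it fell, and 2 did not pass. Among all single genes 29.8% were called and 44.2% did not overlap, and no such share was worked out for other pairs of genes. The groups did not overlap for 13 pairs, and each of these had a two-sided exact permutation p of 0.1, the smallest possible (0.108 adjusted over the 14 pairs). The asparagine pair overlapped, with an exact permutation p of 0.2. These permutation tests cannot reach 0.05.

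The alanine pair moved most. AARS1 minus AARS2 was 0.87, 0.77 and 0.72 in the control samples against 2.59, 2.55 and 2.56 in the shFRY samples, a change of 1.78 (95% confidence interval 1.56 to 1.99, limma adjusted p = 1.01e-05). Here AARS1 rose and AARS2 fell in the same cultures. LARS1 minus LARS2 was 2.88, 2.98 and 2.82 in the control samples against 4.73, 4.60 and 4.09 in the shFRY samples, a change of 1.58 (1.20 to 1.96, limma adjusted p = 0.000271). The spread of this pair came mostly from LARS2. SARS1 minus SARS2 changed by 1.39 (0.88 to 1.91, limma adjusted p = 0.00224), from 6.26, 6.50 and 6.34 to 8.22, 7.83 and 7.24. SARS1 rose here, while SARS2, whose signal was near the median of all probe sets, did not pass. The cysteine pair changed by 1.36, EPRS1 against PARS2 by 1.11 and against EARS2 by 1.11, and the tryptophan, isoleucine and tyrosine pairs by 0.98, 0.67 and 0.63, with limma adjusted p-values of 0.000195 to 0.00478 for these 6 pairs. All 9 calls held when any 1 sample was left out. The cysteine pair used the CARS2 probe set 218153_at (-0.37), while CARS2 was higher at 231023_at (0.78), so its size depends on the probe set. With the beta-actin covariate the alanine, cysteine and both EPRS1 pairs passed.

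The pairs that moved the other way were RARS1 with RARS2 (-0.47, limma adjusted p = 0.0164), HARS1 with HARS2 (-0.35, 0.0247) and FARSA with FARS2 (-0.31, 0.0390). RARS1 and FARSA were the cytoplasmic enzymes that fell. These 3 calls were less stable: 0 of them passed without control sample 1 or 3 or shFRY sample 1, 1 without control sample 2 or shFRY sample 3, and 2 without shFRY sample 2. NARS1 with NARS2 changed by 0.19 (95% confidence interval -0.07 to 0.45) and VARS1 with VARS2 by -0.46 (-0.97 to 0.05). Neither passed (limma adjusted p = 0.256 and 0.165), and without shFRY sample 3 the valine pair did (-0.68, limma adjusted p = 0.0331).

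**Figure D3:**
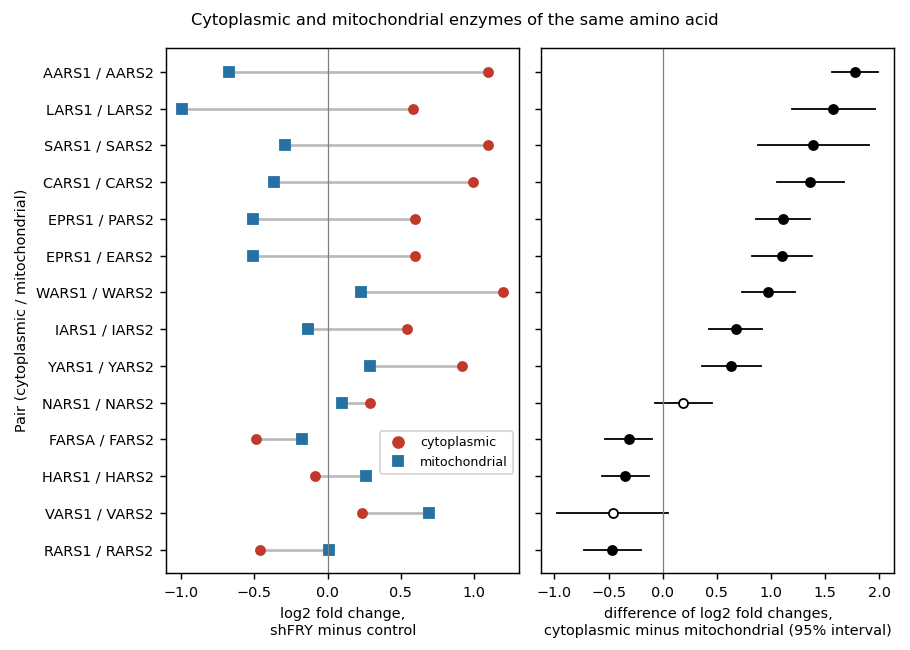
The 14 measured pairs of cytoplasmic and mitochondrial enzymes. The left panel gives the log2 fold change (shFRY minus control) of the cytoplasmic (red circle) and mitochondrial gene (blue square), and the right panel the difference of these changes with its 95% confidence interval, open where it did not pass. The alanine pair stands at 1.78 and the leucine pair at 1.58, and the arginine pair lies below 0.

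Further probe sets of the same genes gave mostly the same picture. The 33 genes had 70 probe sets naming them alone. In a limma fit over 54613 probe sets, 10.9% were higher and 12.2% lower. Of 34 cytoplasmic probe sets 21 were higher and 3 lower, of 33 mitochondrial ones 3 were higher and 9 lower, and of 3 for AIMP1 none passed. Of the 18 called genes 12 had more than 1 probe set, and in 8 of these another probe set was called the same way. All 4 LARS1 probe sets (log2 differences 0.38 to 0.84), all 3 of EPRS1 and both of WARS1, SARS1 and TARS1 were higher, and both of LARS2 and 3 of 4 of EARS2 were lower. The second TARS1 probe set was dim, with means of 2.87 in control and 3.40 in shFRY samples, near the median of all probe sets (3.04). The second SARS1 probe set, 231894_at, moved more than the one used (1.82).

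Some genes had probe sets that differed, the clearest case being CARS2. It was lower at 218153_at (-0.37) but higher at 231023_at (0.78, limma adjusted p = 0.00133), so its direction depends on the probe set, and the mean of its probe sets gave a change of 0.09. FARSB differed by 0.18 at its brightest probe set and was called lower at 232063_x_at (-0.64, limma adjusted p = 0.0141), a dim probe set below the median of all. RARS2 did not pass at its 2 bright probe sets and was lower at 1561048_at (-0.71). WARS2 was higher at 222734_at (0.78, limma adjusted p = 0.00396) but did not pass at the brighter 218766_s_at (0.23). VARS1 was higher at 201797_s_at (0.40, limma adjusted p = 0.0484) and did not pass at the brighter 201796_s_at. AARS2, FARSA and YARS1 were called at the probe set used, and their dimmer probe set had the same sign but did not pass. The dimmer ones were at -0.23, -0.35 and 0.51 (limma adjusted p = 0.382, 0.0829 and 0.146).

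**Figure D4:**
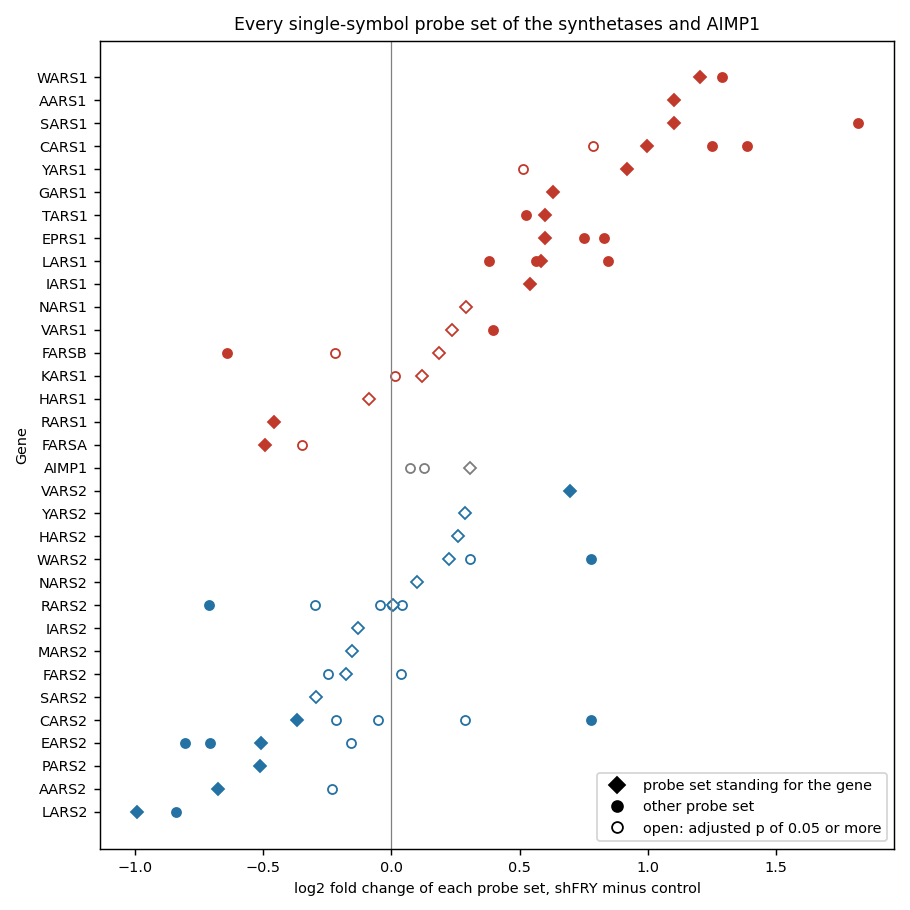
Log2 difference (shFRY minus control, x axis) of every probe set that names 1 of the measured genes alone. Diamonds are the probe sets that represent a gene and circles the others, red for cytoplasmic, blue for mitochondrial and grey for AIMP1, and open symbols did not pass. CARS2 has filled symbols on both sides of 0, at -0.37 and 0.78, while the 4 of LARS1 all lie above 0.

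Genes around the synthetases were read in the same fit. Of 26 genes of the ATF4 pathway, all measured, 24 rose and none fell (limma, median log2 fold change 0.88). That is 92.3% higher and 0% lower, against 13.7% and 16% of all genes. The list was chosen with earlier results of these data known, so its count is a description only. The transcription factor genes DDIT3 (3.62, SE 0.13) and ATF3 (3.53, SE 0.17) and the pseudokinase gene TRIB3 (3.49, SE 0.13) rose most. ATF4 itself, which is mainly controlled at translation, had signals of 10.52, 10.33 and 10.45 in the control samples against 11.09, 11.04 and 11.01 in the shFRY samples, a rise of 0.62 (limma adjusted p = 0.00215). With the beta-actin covariate 10 of the 26 passed as higher, and without probe sets ending in _x_at and _s_at 13 genes did. That last setting drops the probe sets used here for ATF3, SESN2 and ASNS, among others. How many of the 26 were still measured there is not given. Among 8 genes for eIF2 kinases and eIF2 control, 4 rose and 2 fell (50% and 25%, against 13.7% and 16% of all genes). PPP1R15A, the stress-induced subunit of the eIF2 phosphatase, rose by 3.17 (SE 0.15), EIF2AK3, the kinase PERK, by 0.62 (SE 0.16), and EIF2AK2, the kinase PKR, fell by 0.79 (SE 0.10). EIF2AK4, which encodes GCN2, did not pass (-0.16). The rises numbered 1 without control sample 1 and 2 without control sample 3 or shFRY sample 1 or 2, and the falls 1 without control sample 3. The call of EIF2AK3 was lost without control sample 1 or shFRY sample 1 or 2 (limma adjusted p = 0.0804, 0.0643 and 0.0661), and with averaged probe sets (0.24, limma adjusted p = 0.144). In this list 1 gene rose and 0 fell with the beta-actin covariate.

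Among 7 measured of 10 other genes of tRNA charging, 2 rose and 3 fell (limma; median -0.17), 28.6% and 42.9% against 13.7% and 16% of all genes. With the beta-actin covariate 0 rose and 0 fell, and with averaged probe sets 1 rose. TARS3, a second threonine enzyme of the cytoplasm, had signals of 6.20, 6.57 and 6.22 in the control samples against 4.39, 5.03 and 4.80 in the shFRY samples. It fell by 1.59 (SE 0.18, limma adjusted p = 0.00038), opposite to TARS1, with no overlap. MTFMT, which formylates the mitochondrial initiator tRNA, fell by 0.81 (SE 0.13), and GATB, a subunit of the amidotransferase that makes mitochondrial glutaminyl-tRNA, fell by 0.67 (SE 0.16). The GATB call was lost without control sample 1 or 3 (limma adjusted p = 0.0523 and 0.0563). QRSL1, another subunit of that amidotransferase, rose by 0.40, opposite to GATB.

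Of 78 measured mitochondrial ribosomal protein genes, 5 rose and 29 fell (limma; median -0.24), which is 6.41% and 37.2% against 13.7% and 16% of all genes. The falls were led by CHCHD1 (-1.19, SE 0.13), MRPL27 (-1.10, SE 0.10) and MRPL16 (-0.97, SE 0.13). The 29 falls were 18, 16 and 16 without control sample 1, control sample 3 or shFRY sample 2, 11 without probe sets ending in _x_at and _s_at, and 1 with the beta-actin covariate. How many of the 78 genes were still measured without those probe sets is not given. The 5 rises were 3 and 2 without control sample 1 or 3. Of 11 mitochondrial translation factor genes 1 rose and 2 fell (9.09% and 18.2%, median 0.05), shares near those of all genes, with TSFM, the mitochondrial elongation factor Ts, at -0.51, the initiation factor gene MTIF3 at -0.49 and LRPPRC, which stabilises mitochondrial mRNAs, at 0.39 (0.31 and not called without probe sets ending in _x_at and _s_at). None of these 3 passed with the beta-actin covariate. In the cytoplasm, 6 elongation factor genes were measured, and EEF2K, the kinase that inhibits elongation factor 2, was the only one called (-1.15, SE 0.11). That is 16.7% lower, near the 16% of all genes. The elongation factor genes EEF1A1 (0.15) and EEF2 (0.17) did not pass.

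**Figure D5:**
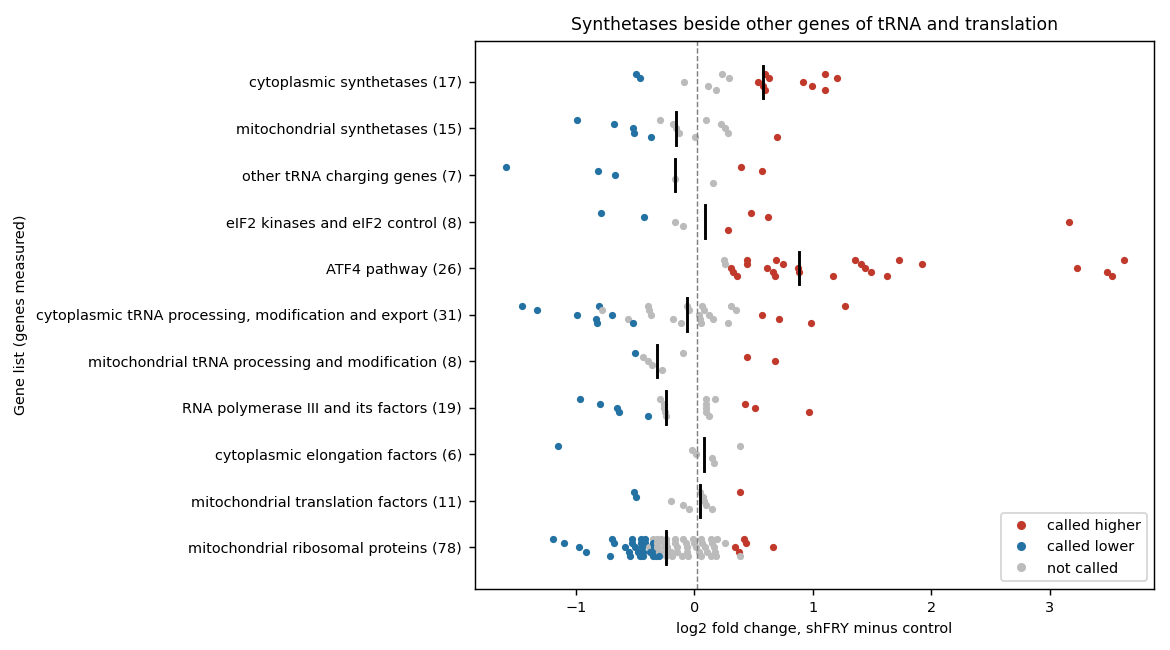
Log2 fold change (shFRY minus control, x axis) of every measured gene in each list, red where called higher, blue where called lower and grey where not called. Black bars are the list medians and the dashed line the median of all genes: the ATF4 pathway (0.88) and the cytoplasmic synthetases (0.58) have the highest medians, and the mitochondrial ribosomal proteins stand at -0.24.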

How the data were processed

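Total RNA of 6 samples was amplified to cDNA, labelled with biotin and hybridised to 1-colour arrays, per the labels' protocols. The authors deposited values on the log2 scale made with RMA, per the submitters' processing notes (version and settings not given in the sources used here). This method makes arrays alike in distribution, so a change shared by all genes cannot be seen, and it compresses changes of dim probe sets.

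Probe sets were named through the platform annotation, which can be old, with symbols updated by Entrez ID to RefSeq. Of 54675 probe sets, 62 were controls, 41091 named 1 symbol, 1801 several and 11721 none, and 41037 of those with 1 symbol matched RefSeq. Each gene was represented by its brightest single-symbol probe set. Groups, taken from sample titles, were compared by lmFit and eBayes of limma 3.58.1 (R 4.3.3), with no filter on signal, 4 residual degrees of freedom and Benjamini-Hochberg adjustment over 19775 genes, at a threshold of 0.05. The scripts were tested on simulated data. Precision is limited by the number of arrays, with a median SD per gene of 0.13 in the control and 0.15 in the shFRY samples.

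The members and lists were chosen with earlier results of these data known. Sample values are given for up to 8 called genes per compartment with the largest change, AIMP1 and the 3 pairs that changed most. They are also given for FARSA and RARS1, the cytoplasmic enzymes that fell, and for ATF4, TARS3 and XPOT. For related lists up to 3 called genes with the largest change are named; where the text names others (ATF4, EIF2AK4, QRSL1, SARS2 by sample, EEF1A1 and EEF2) they were chosen for their function or after their values were seen. Alternatives were median centring, quantile normalization, the trend and robust options of eBayes, only the brighter probe sets, averaging the probe sets of a gene, leaving out _x_at and _s_at probe sets, array weights, the replicate number as a block, the beta-actin covariate and leaving out each sample.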

Additional observations from a re-analysis of the deposited data

How the results depend on the processing

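The counts of cytoplasmic rises and of pairs called higher moved by over 1.5 times under 2 alternatives. With trend and robust options, the brighter probe sets or averaged probe sets 11 cytoplasmic enzymes rose instead of 10, and with the brighter probe sets 8 pairs were higher instead of 9. With the beta-actin 3' to 5' difference as a covariate, which leaves fewer residual degrees of freedom and differs between the groups, calls fell to 1026 genes, 5 cytoplasmic rises and 0 falls, 0 mitochondrial rises and 0 falls, and 4 pairs higher and 0 lower, while the medians were 0.57 (cytoplasmic) and -0.16 (mitochondrial). Without probe sets ending in _x_at and _s_at, 12 cytoplasmic enzymes remained measured, of which 5 rose (median 0.40), and 4 pairs were called higher: EPRS1, GARS1, IARS1 and LARS1 have no other probe sets, and YARS1 did not pass (0.51). The mitochondrial rises numbered 2 there, 2 with trend and robust options, 2 with the brighter probe sets and 3 with probe sets averaged per gene, where HARS2 or WARS2 or both passed beside VARS2. The replicate numbers did not pair the samples: deviations of same-numbered samples correlated at r = -0.0024 to 0.0068. With the replicate number as a block, 5330 genes, 10 cytoplasmic rises and 4 mitochondrial falls were called, and 1 pair was called lower instead of 3; CARS2 (limma adjusted p = 0.0516) lost its call. Leaving out 1 sample at a time gave 4503 to 5766 genes, 10 cytoplasmic rises, 1 to 2 cytoplasmic falls, 0 to 1 mitochondrial rises, 4 to 5 mitochondrial falls, 9 pairs higher, 0 to 2 pairs lower, and medians of 0.55 to 0.60 (cytoplasmic) and -0.17 to -0.10 (mitochondrial). Signs turned for FARSB (-0.23 with the mean of probe sets, -0.22 without _x_at and _s_at), CARS2 (0.086 with the mean of probe sets), NARS2 (-0.030 with the covariate) and RARS2 (-0.043 with quantile normalization, -0.17 with the mean of probe sets, -0.022 with array weights, -0.16 with the covariate, and -0.072 to 0.066 on leaving out 1 sample, below 0 without control sample 1 or shFRY sample 3). Apart from the values of probe sets, which follow from the probe sets chosen, the cause was not tested. With 3 samples a group and 1 clone per construct, small changes are the least certain.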

Other observations

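Genes that make and mature tRNAs were called in both directions, as were genes over the whole array. The share of rises was near that of all genes for cytoplasmic tRNA processing and for RNA polymerase III. Of 31 measured genes of cytoplasmic tRNA processing, modification and export, 4 rose and 8 fell in the shFRY samples (limma; median log2 fold change -0.06), which is 12.9% and 25.8% against 13.7% and 16% of all genes. XPOT, the export receptor that carries mature tRNA out of the nucleus, had signals of 8.30, 8.34 and 8.23 in the control samples and 9.61, 9.61 and 9.47 in the shFRY samples. It rose by 1.27 (SE 0.10, limma adjusted p = 5.87e-05), with no overlap between the groups. TSEN54, a subunit of the tRNA splicing endonuclease, fell by 1.46 (SE 0.29), and POP5, a protein of RNase P and RNase MRP, fell by 1.32 (SE 0.14). With the beta-actin covariate 2 genes of this list passed as higher and 2 as lower, and without probe sets ending in _x_at and _s_at 4 fell. That last setting drops the probe sets used here for POP4, TSEN34 and TRMT5, which were among the 8 falls.

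Of 19 measured genes of RNA polymerase III and its factors, 3 rose and 5 fell (limma, median -0.24). These are 15.8% and 26.3%, against 13.7% and 16% of all genes. The subunit gene POLR3C rose by 0.97 (SE 0.10), and BRF1, a subunit of the initiation factor TFIIIB, and POLR3K, another polymerase subunit, fell by 0.96 (SE 0.21) and 0.80 (SE 0.11). The mean of the BRF1 probe sets gave -0.15, which did not pass. The count of rises was 1 without control sample 2. With the beta-actin covariate none of the 19 passed in either direction. Of 8 genes of mitochondrial tRNA processing and modification, 2 rose and 1 fell, 25% and 12.5% against 13.7% and 16% of all genes. The tRNA isopentenyltransferase gene TRIT1 (0.68) and the wobble uridine modification gene MTO1 (0.45, or 0.029 without probe sets ending in _x_at and _s_at) rose. HSD17B10, a subunit of mitochondrial RNase P, was at -0.50. The count of falls was 3 without shFRY sample 2 and 2 without shFRY sample 3. Of these 8 genes 0 passed with the beta-actin covariate.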
